A study of Equus caballus with 6 samples.

Results

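The serpins (serine protease inhibitors) of the horse blastocyst are described here across its 2 tissues. Rows of the deposited table were taken whose gene symbol starts with SERPIN followed by a clade letter and a number. SERPING1, the complement inhibitor, was left out. The text covers 11 genes of 12270 in the table: SERPINB1, SERPINB6, SERPINB8, SERPINB9, SERPINC1, SERPINE2, SERPINE3, SERPINF1, SERPINF2, SERPINH1 and SERPINI1. The RefSeq gene table of the horse assembly TB-T2T lists 29 protein-coding serpin symbols of this kind. All 11 genes are among them.

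Serpins share 1 protein fold. An inhibitory serpin offers an exposed loop to a protease, which cuts it and is then trapped in a covalent complex with the inhibitor. Clade B serpins act mainly inside cells, most other clades are secreted, and a few members have lost inhibition and serve as chaperones or signals. In the embryo and placenta, serpins are best known for holding back the plasminogen activators, proteases by which cells remodel the matrix around them.

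RNA came from blastocysts of horse (Equus caballus) that formed in superovulated mares and were taken on day 8. All 6 libraries are from blastocysts exposed to Pronase, a protease mix. The 3 libraries of trophectoderm (TE, the outer epithelium that gives rise to the placenta) are TE 16, TE 23 and TE 24, from tissue cut away mechanically. The 3 libraries of inner cell mass (ICM) are ICM 15, ICM 22 and ICM 25, from cells purified by immunosurgery, in which antibody and complement destroy the outer cells. The tissue and the way it was isolated go together in every library, and their effects cannot be told apart. No ICM is tied to a TE by the labels, and mares are not named. Each p-value therefore rests on the spread among libraries within the tissues, which may be partly technical. The tissue was sequenced in bulk, so fewer cells that express a gene and less of its RNA per cell cannot be told apart.

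The libraries held 6526212 to 10686659 reads each over the rows of the table. Levels are in RPKM, reads divided by gene length in kilobases and scaled for depth. ICM 25 stood apart from ICM 15 and ICM 22. Its summed level of 8 epiblast markers was 60.2 RPKM, where ICM 15 and ICM 22 had 158 and 152 and TE 45.5 to 73.1. The sum of 11 hypoblast markers was 50.2 RPKM in ICM 25, 115 and 118 in the other ICM libraries and 45.9 to 54.3 in TE. Trophectoderm markers (9 rows) did not show the same: they summed to 52.7 RPKM in ICM 25, 52.0 and 84.7 in ICM 15 and ICM 22, and 160 to 201 in TE. Results that rest on ICM 25 are therefore given with and without it.

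Over the 6 libraries, 3 of the 11 serpins (SERPINB1, SERPINB6 and SERPINB9) had a mean above the median row of the table (3.76 RPKM), and 8 had a mean below it. In TE, SERPINB9 led at 16.6 ± 1.92 RPKM (mean ± SD, n = 3 here and below), and its lowest library lay above the highest of each of the other 10 there. SERPINB6 (9.99 ± 1.66), SERPINB1 (5.77 ± 1.12), SERPINB8 (2.87 ± 0.49) and SERPINE2 (0.60 ± 0.21) each lay below the one before with no overlap. The remaining 6 had TE means of 0.12 to 0.42 RPKM, and neighbours in that order overlapped. In ICM the leading serpin differed from library to library: SERPINB1 in ICM 15, SERPINB6 in ICM 22 and SERPINE2 in ICM 25. The 11 genes summed to 24.3, 43.4 and 45.1 RPKM in ICM 15, ICM 22 and ICM 25, and to 41.2, 36.5 and 35.3 in TE 16, TE 23 and TE 24. The sums of the tissues overlapped. Clade B genes made up most of the sum in TE, 32.8 to 38.9 RPKM, and 16.2, 31.7 and 20.0 RPKM in ICM 15, ICM 22 and ICM 25.

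**Figure D1:**
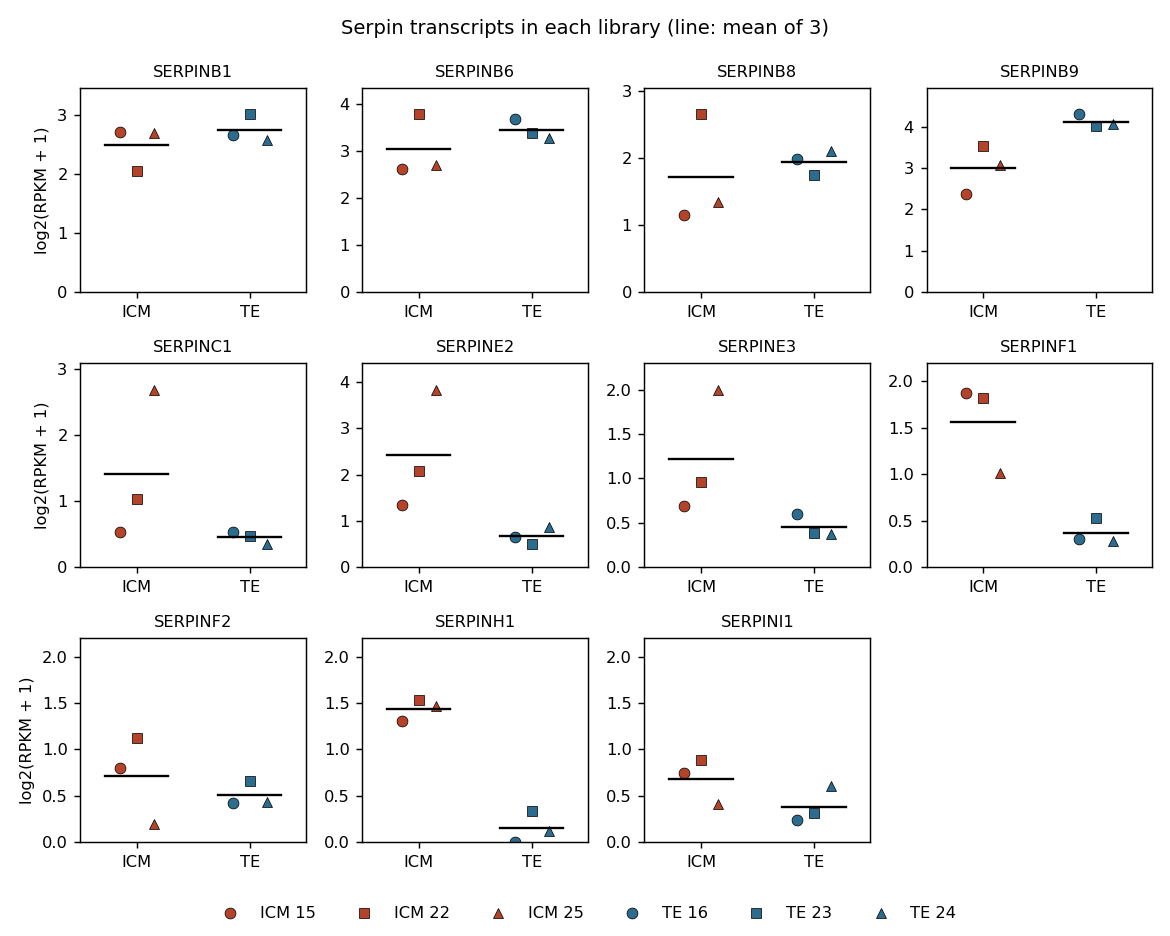
Level of each of the 11 serpins as log2(RPKM + 1), with 1 point per library, ICM in red, TE in blue and a line at the mean of 3 libraries; the vertical scale differs between panels. ICM 25 (red triangle) is the highest point for SERPINC1, SERPINE2 and SERPINE3, while SERPINH1 has 3 tight ICM values above all TE values.

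**Figure D2:**
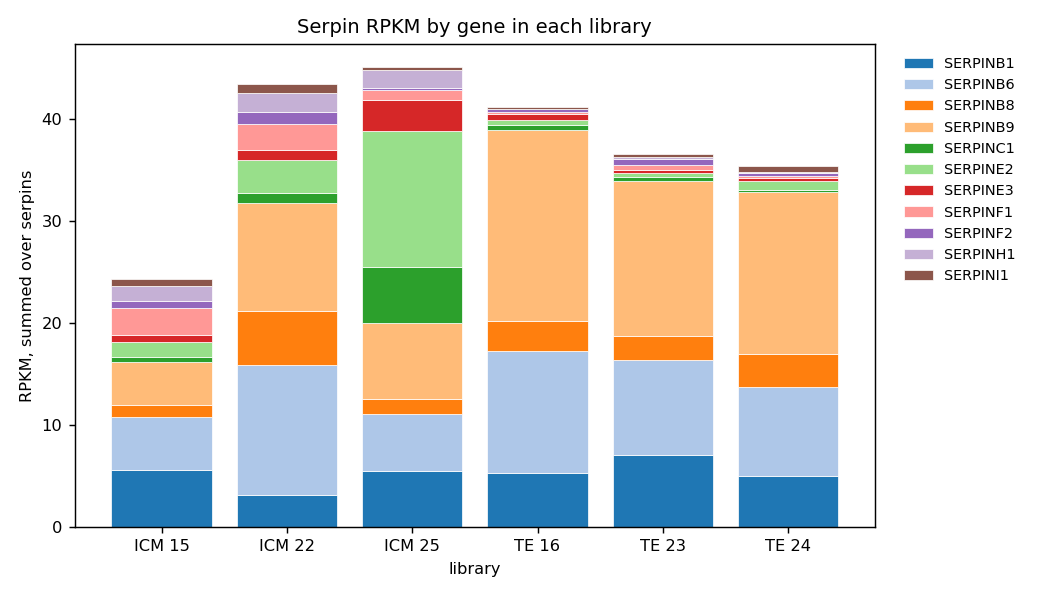
RPKM of the 11 serpins stacked for each library. The bars reach 24.3 to 45.1 RPKM in ICM and 35.3 to 41.2 in TE, and SERPINE2 takes a visible share in ICM 25, at 13.3 RPKM.

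Setting ICM against TE asks which serpin transcripts differ between the tissues. Log2(RPKM + 1) was fitted with limma over the 9436 genes that had at least 1 RPKM in at least 3 libraries, and called at an adjusted p under 0.05. A log2 difference below is ICM minus TE on this scale. The added 1 makes differences of low genes smaller than their ratios of RPKM. The median difference over all genes tested was -0.15, and 0.01 after rescaling the libraries by the median of ratios. Of the 11 serpins, 7 passed the filter and 4 (SERPINC1, SERPINE3, SERPINF2 and SERPINI1) did not. SERPINE2, SERPINF1 and SERPINH1 passed through their 3 ICM libraries alone, so the filter itself favours a difference in these. Among the 7, SERPINH1 was called, with ICM higher, and 0 were called with TE higher. At an unadjusted p under 0.05 SERPINB9, SERPINE2 and SERPINF1 would also count. That threshold was met by 498 of the 9436 genes tested with ICM higher and by 1094 with TE higher. At the adjusted threshold the background of calls over all genes tested was 0.933% with ICM higher and 0.933% with TE higher. This is 88 genes each way (128 and 64 after median of ratios rescaling). With no filter SERPINH1 was again the 1 call among the 11 (background 0.489% with ICM higher and 0.44% with TE higher). Without ICM 25, 2 serpins were called with ICM higher (SERPINF1 and SERPINH1) and 0 with TE higher, against backgrounds of 5.89% and 5.62%. Dropping both that library and the filter added SERPINE2, which made 3 of 11 with ICM higher and 0 with TE higher, where 6.11% and 4.48% of all rows were called. The values of the tissues did not overlap for 6 of the 11 serpins, 5 with ICM higher and 1 with TE higher. Over all rows, 9.54% did not overlap with ICM higher and 15.8% with TE higher.

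SERPINH1, also known as HSP47, is the chaperone that binds newly made collagen in the endoplasmic reticulum, and it does not inhibit proteases. It stood at 1.47, 1.88 and 1.76 RPKM in ICM 15, ICM 22 and ICM 25 (50, 78 and 59 reads). TE 16 had 0 reads, which allows up to 0.083 RPKM at a limit of 3 reads, and TE 23 and TE 24 had 0.26 and 0.085 RPKM (7 and 3 reads). The transcript was thus low in ICM and near the detection limit in TE, and the tissues did not overlap. ICM exceeded TE by 14.7-fold in mean RPKM, with a log2 difference of 1.28 (SE 0.22, limma adjusted p = 0.0336). Leaving out ICM 25 hardly moved it: the fold was then 14.4 (limma adjusted p = 0.0161). Its SD in ICM, 0.12 log2 units, was smaller than that of 8995 of the 9436 genes tested. The added 1 lowers the SD of a gene at this level, so the rank partly reflects the scale. The call was lost when any 1 library other than ICM 25 was left out. The adjusted p was 0.0689 without ICM 15, 0.0678 without ICM 22, and 0.192, 0.166 and 0.172 without TE 16, TE 23 and TE 24. In these fits the log2 difference was 1.21 to 1.37. Of all genes tested, they called 18, 76, 0, 1 and 1 in the same order, against 176 with all 6 libraries. The call was also lost with a pseudocount of 0.1, where the log2 difference grew to 3.25 and its error with it (SE 0.67, adjusted p = 0.0573). It held without a filter (adjusted p = 0.0319) and with voom on the recovered reads (log2 difference 4.71, SE 0.92, adjusted p = 0.0415).

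The partners of SERPINH1 in collagen making were read out of the same fit. Of 25 rows for collagen-modifying enzymes and the secretory route, 20 were tested and 0 were called in either direction by limma, also with voom. Over all genes tested 0.933% were called each way by limma, so that 0 of 20 does not set this list apart. With 1 weight per library, 1 of the 20, SEC24D, was called with TE higher, as were 395 of all 9436 genes. The same gene was the 1 called without ICM 25 (background 5.62%). At an unadjusted p under 0.05 there were 3 with ICM higher and 3 with TE higher (498 and 1094 of all 9436 genes). The median log2 difference of the 20 was -0.04, and for 9 of them the difference was above 0. The smallest p belonged to SEC24D, a coat protein of vesicles that leave the endoplasmic reticulum (ICM 11.96 ± 6.42 and TE 24.6 ± 2.54 RPKM, limma adjusted p = 0.164, 0.00913 with library weights and 0.00726 without ICM 25), and to P4HA3, a prolyl hydroxylase subunit (1.66 ± 0.64 against 4.26 ± 1.93, adjusted p = 0.220). Of 9 rows for collagen chains 2 passed the filter, and 0 were called by limma or voom (1 at an unadjusted p under 0.05). COL4A1, a chain of basement membrane collagen, averaged 3.58 ± 1.42 RPKM over the ICM libraries and 1.68 ± 0.44 over those of TE (adjusted p = 0.253, and 0.0417 without ICM 25). COL4A5, another chain of this collagen, had 1.55 ± 1.84 against 1.92 ± 0.76 RPKM. COL1A2, a chain of fibrillar collagen picked out after its values were seen, had 9.46, 6.07 and 0.35 RPKM in ICM 15, ICM 22 and ICM 25 and 0.018 to 0.036 in TE. For COL1A2, ICM 25 was thus far below the other ICM libraries, while for SERPINH1 it lay between them.

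SERPINE2, or protease nexin-1, is a secreted and matrix-bound inhibitor of thrombin, urokinase and tissue plasminogen activator. Its levels were 1.55, 3.24 and 13.3 RPKM in ICM 15, ICM 22 and ICM 25, and 0.56, 0.42 and 0.82 in TE 16, TE 23 and TE 24. Every ICM library lay above every TE library, but the ICM values spread over almost an order of magnitude. The mean ICM level was 10.05-fold that of TE and the log2 difference 1.75 (SE 0.54), which did not pass (limma adjusted p = 0.155). Leaving out ICM 25 lowered the fold to 3.98 and the log2 difference to 1.05, and also narrowed the error (SE 0.28, adjusted p = 0.0517). Without that library and without a filter the adjusted p was 0.0473, and with 1 weight per library it was 0.0337. With voom the log2 difference was 2.84 (SE 1.04, adjusted p = 0.209). By the coordinates in the table (genome build not stated), SERPINE2 lies on chromosome 6 (12788059 to 12811856), and a row deposited as ZNF271 overlaps its lower end. Strand is not given, so reads in the overlap cannot be assigned to 1 of them with certainty.

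ICM 25 was set against the other ICM libraries by its log2(RPKM + 1) minus the mean of ICM 15 and ICM 22. This was 2.13 for SERPINE2, and 55 of the 9436 genes tested had a larger difference. It was 1.91 for SERPINC1, which 83 genes tested exceeded, and 1.18 for SERPINE3, which 297 exceeded. The median gene tested had -0.41. The other 8 serpins lay between -0.84 and 0.32, so that high values in ICM 25 were a feature of 3 of the 11 genes.

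**Figure D3:**
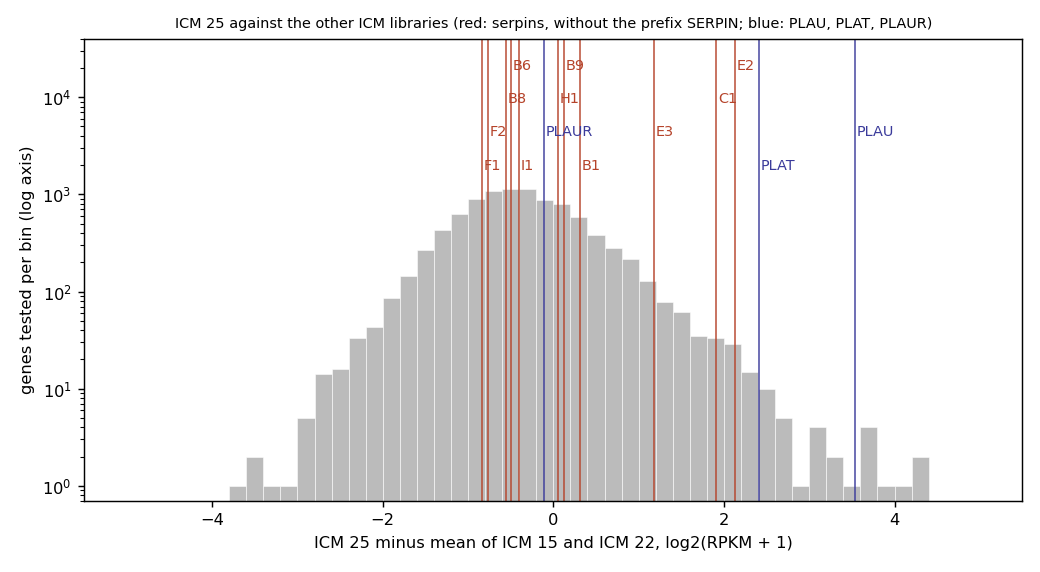
Histogram of the 9436 genes tested by ICM 25 minus the mean of ICM 15 and ICM 22, in log2(RPKM + 1), with a log axis of gene numbers. Vertical lines mark the 11 serpins (red) and PLAU, PLAT and PLAUR (blue), including those under the filter; SERPINE2 lies at 2.13, and 8 serpins lie at -0.84 to 0.32.

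The plasminogen activators, which SERPINE2 inhibits, had the same outlying library. Urokinase (PLAU) was at 0.025, 0.41 and 12.9 RPKM in ICM 15, ICM 22 and ICM 25 (1, 20 and 506 reads), and at 0.38, 0.61 and 0.51 in TE 16, TE 23 and TE 24. Tissue plasminogen activator (PLAT) was at 0.26, 1.16 and 7.82 RPKM in the ICM libraries and at 0.97, 0.43 and 0.70 in TE. Both were low in 5 libraries and high in ICM 25, and neither passed the filter. The urokinase receptor PLAUR had another pattern, at 19.4, 41.5 and 26.4 RPKM in ICM against 7.79, 7.28 and 10.1 in TE, with no overlap. It was called with ICM higher (limma adjusted p = 0.0426, log2 difference 1.63 with SE 0.31), also without ICM 25 (adjusted p = 0.0155). ANXA2, which binds plasminogen and tissue plasminogen activator at the cell surface, was called as well, with 151 ± 9.77 RPKM in ICM and 63.0 ± 1.71 in TE (adjusted p = 0.0327, log2 difference 1.24 with SE 0.21). In all, 7 genes of the list of plasminogen activation and coagulation were tested. Of these, the 2 were called with ICM higher and 0 with TE higher, with a median log2 difference of 1.24. Over all genes tested 0.933% were called each way, and the median was -0.15. Without ICM 25, 4 of the 7 were called with ICM higher, where 5.89% of all genes were. Both calls were lost when any 1 library other than ICM 25 was left out (adjusted p of 0.0611 to 0.236). In these fits 0 to 76 of all genes tested were called, against 176 with all 6 libraries.

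**Figure D4:**
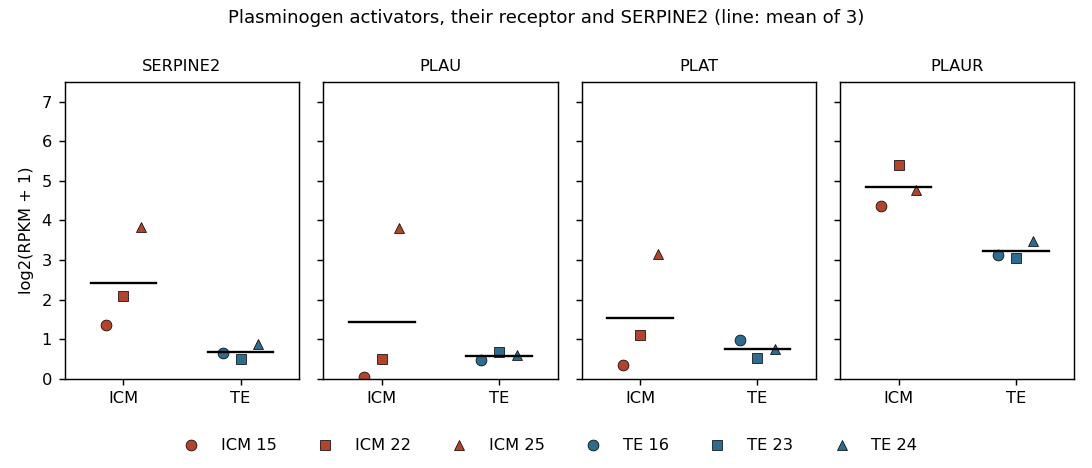
Level of SERPINE2, PLAU, PLAT and PLAUR as log2(RPKM + 1) on 1 common scale, with 1 point per library and a line at the mean of 3. ICM 25 (red triangle) is the highest point in the first 3 panels, and in PLAUR it lies between ICM 15 and ICM 22.

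The clade B serpins, which act inside cells, were at least 1 RPKM in all 6 libraries, and for none of the 4 was ICM 25 the highest library. SERPINB9, the inhibitor of granzyme B, was the only serpin of the 11 with every TE library above every ICM library. It had 4.21, 10.6 and 7.47 RPKM in ICM 15, ICM 22 and ICM 25, and 18.7, 15.2 and 15.8 in TE 16, TE 23 and TE 24. TE held 2.23-fold the mean level of ICM, but the log2 difference of -1.13 (SE 0.32) did not pass (limma adjusted p = 0.117). It was -1.17 without ICM 25 (adjusted p = 0.0532), and it passed with 1 weight per library (adjusted p = 0.0425). SERPINB1, an inhibitor of neutrophil elastase and related proteases, had 5.57, 3.15 and 5.50 RPKM in ICM and 5.31, 7.04 and 4.94 in TE. SERPINB6, an inhibitor of cathepsin G, had 5.17, 12.7 and 5.50 in ICM and 11.9, 9.35 and 8.74 in TE. SERPINB8, which inhibits the convertase furin, had 1.22, 5.28 and 1.53 in ICM and 2.96, 2.34 and 3.30 in TE. For these 3 the tissues overlapped, with log2 differences of -0.26 (SE 0.28), -0.41 (SE 0.34) and -0.23 (SE 0.39) and adjusted p of 0.699, 0.592 and 0.820. ICM 22 was the highest ICM library for SERPINB6, SERPINB8 and SERPINB9 and the lowest for SERPINB1.

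SERPINB1, SERPINB9 and SERPINB6 lie in this order on chromosome 20 (3298143 to 3443474 in the deposited coordinates), with no other row of the table between them. SERPINB8 lies apart on chromosome 8. All 3 neighbours had a lower mean in ICM than in TE, and of the 3 only SERPINB9 had tissues that did not overlap; whether their differences were unequal was not tested.

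SERPINF1, or PEDF, is a secreted serpin without inhibitory activity that is known for restraining blood vessel growth. It stood at 2.67, 2.53 and 1.01 RPKM in ICM 15, ICM 22 and ICM 25 and at 0.23, 0.44 and 0.21 in TE 16, TE 23 and TE 24, again with no overlap. ICM 25 was here the lowest of the ICM libraries, the opposite of SERPINE2 and SERPINE3. The log2 difference was 1.20 (SE 0.29) and missed the threshold (limma adjusted p = 0.0771). It was called without ICM 25 (log2 difference 1.48, SE 0.22, adjusted p = 0.00831), with median of ratios rescaling (adjusted p = 0.0445) and with 1 weight per library (adjusted p = 0.00895). With a pseudocount of 0.1 and with voom the log2 difference was 2.40 and 2.96 (adjusted p = 0.0868 and 0.0515). Its neighbour SERPINF2, the plasmin inhibitor alpha-2-antiplasmin, starts the pair on chromosome 11 (45398478 to 45421641), with 10449 bases between them and no row in between. SERPINF2 had 0.74, 1.18 and 0.15 RPKM in ICM and 0.34, 0.58 and 0.35 in TE. Its tissues overlapped, and ICM 25 was the lowest of the 6 libraries.

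**Figure D5:**
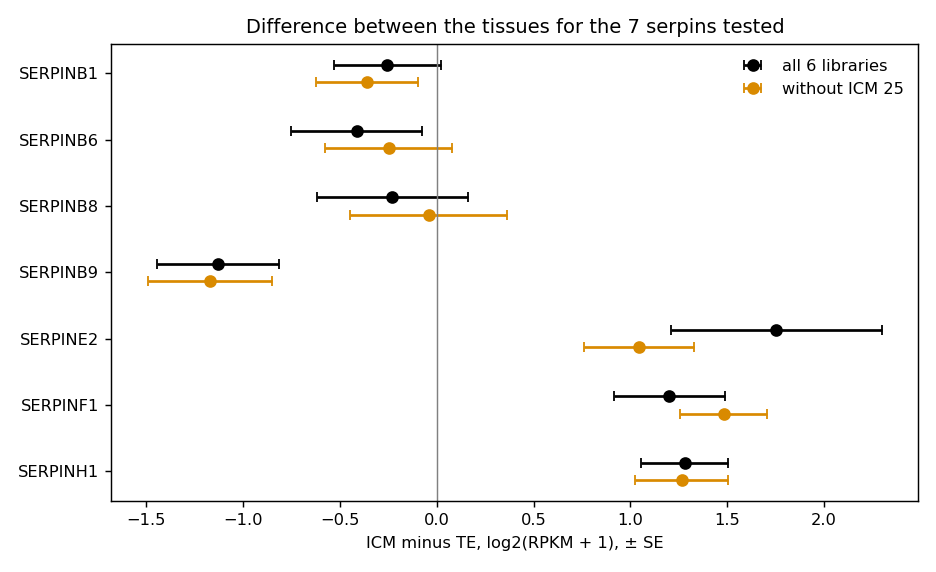
Log2 difference (ICM minus TE, on log2(RPKM + 1), ± SE from limma) for the 7 serpins tested, with all 6 libraries in black and without ICM 25 in orange. SERPINE2 moves from 1.75 to 1.05 when ICM 25 is left out, while SERPINH1 stays at 1.28 and 1.26.

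The remaining 3 serpins were scarce and were not tested. SERPINC1, or antithrombin, the plasma inhibitor of thrombin, had 0.44, 1.05 and 5.46 RPKM in ICM 15, ICM 22 and ICM 25 (16, 46 and 194 reads). Its TE libraries had 0.44, 0.39 and 0.27, so that ICM 15 and TE 16 were level (0.443 and 0.442) and 78.6% of the ICM sum came from ICM 25. SERPINE3, a clade E member of little known function, had 0.61, 0.95 and 3.01 RPKM in ICM and 0.51, 0.30 and 0.30 in TE. Both were ordered ICM 15, ICM 22, ICM 25 from low to high, like SERPINE2. SERPINI1, or neuroserpin, an inhibitor of tissue plasminogen activator, had 0.67, 0.84 and 0.33 RPKM in ICM and 0.18, 0.24 and 0.52 in TE, with overlap. When limma was fitted without a filter, none of SERPINC1, SERPINE3, SERPINF2 and SERPINI1 passed (adjusted p of 0.323, 0.268, 0.718 and 0.490).

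The authors' deposited table gives DESeq results for the same libraries. In the authors' deposited table, as many as 5 of the 11 serpins have an adjusted p under 0.05 with ICM higher (SERPINC1, SERPINE2, SERPINE3, SERPINF1 and SERPINH1) and SERPINB9 with TE higher, where 10.7% and 5.93% of all rows do. SERPINE2 has an adjusted p of 5.76e-22 in the authors' deposited table and SERPINH1 of 3.34e-10. The residual variance of ICM in the authors' deposited table, relative to the variance that DESeq fitted, is 14.3 for SERPINE2 and 10.7 for SERPINC1, against 0.12 for SERPINH1 and 0.43 for SERPINB9. The others of the 11 have ICM values from 0.36 (SERPINB1) to 3.96 (SERPINE3). SERPINC1 and SERPINE2, with the largest ICM residual variances of the 11, are also those with the largest excess in ICM 25. Both measures come from the same 3 ICM libraries, so a high value in ICM 25 raises both, and they are not separate observations.

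The receptors and surface partners that bind serpins or their complexes with proteases (8 tested of 12 rows) had 1 call in each direction. Over all genes tested 0.933% were called each way. Without ICM 25, 1 was called with ICM higher and 2 with TE higher (backgrounds 5.89% and 5.62%). The call gained was LRP2 (named after its values were seen), at 72.1 ± 37.5 RPKM in ICM and 213 ± 11.2 in TE. Its limma adjusted p was 0.0682, and 0.00618 without ICM 25. LRP8, a receptor of the LDL receptor family, averaged 3.35 ± 0.54 RPKM over ICM and 13.03 ± 2.13 over TE, and was called with TE higher (limma adjusted p = 0.0217, log2 difference -1.68 with SE 0.24). The glypican GPC4, a heparan sulfate carrier, was at 22.9, 20.3 and 2.64 RPKM in ICM 15, ICM 22 and ICM 25 against 0.020 to 0.20 in TE (adjusted p = 0.0359, log2 difference 3.49 with SE 0.63). GPC4 passed the filter through its 3 ICM libraries alone, and without a filter its adjusted p was 0.0447. Its lowest ICM level was in ICM 25, and a low level there was common. Only 2665 of the 9436 genes tested lay higher in ICM 25 than the mean of ICM 15 and ICM 22. The call of GPC4 was lost with voom, where the log2 difference was 7.36 (adjusted p = 0.0858), and without any 1 library other than ICM 25 (0.0886 to 0.166), and that of LRP8 without ICM 15 (0.0627) and without any 1 of the TE libraries (0.119 to 0.165).

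The genes with the profile most like that of 2 serpins were sought among all genes tested, by the root mean square distance between log2(RPKM + 1) profiles over the 6 libraries, each centred on its own mean. For SERPINE2 the nearest were FBXO32, a ubiquitin ligase subunit (distance 0.20), MILR1 (0.24), RARRES1 (0.30), the complement regulator CD55 (0.33) and the matricellular factor NOV (0.33), where the median over all genes was 1.33. All 5 had their highest level in ICM 25, and 0 of the 5 were called between the tissues. Both are descriptions only, since likeness to SERPINE2 chose these genes. For SERPINH1 the nearest was TMEM184B (0.10), followed by the pluripotency factor KLF4 (0.14), a numbered locus (0.14), an unnamed gene model (0.15) and ANXA2 (0.15), where the median was 0.81. All 5 were called higher in ICM, a description only, since likeness to SERPINH1 chose them.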

How the data were processed

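The 6 columns of RPKM and all columns of the comparison were made by the authors, whose tools, per the submitters' processing notes, included DESeq and FastQC. Which aligner, counter, build and annotation they used is not given in the sources used here. Per the file headers, the deposited table also holds mean normalized counts (a signal in units of counts), the fold as a ratio, its log2 value, p-values and adjusted p-values from DESeq, and residual variances (a score), all by the authors. All rows reach 0.4 RPKM in 2 libraries or more. RPKM and the deposited mean signal together gave whole reads, within 0.001, for 100% of values of up to 1000 reads. The cDNA was amplified and carried no molecular identifiers, so read numbers and floors cover counting error only.

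For the test, limma 3.58.1 (R 4.3.3) was run on log2(RPKM + 1) with a mean-variance trend, two-sided, with Benjamini-Hochberg adjustment over all 9436 genes kept. The script was tested on simulated data. Alternatives were no filter or 5 RPKM as the filter, 0.1 as the pseudocount, rescaling by the median of ratios, quantile normalization, library weights, voom on the recovered reads and leaving out each library. Leaving out ICM 25 together with the filter was added after seeing the data. The members and lists were chosen with earlier results of these data known. Of 12 rows that meet the rule, 1 is not reported here. Named were the other serpins, PLAU, PLAUR, PLAT, up to 6 called genes or else the 2 with the smallest p in each of 7 context lists, and the 5 nearest profiles of SERPINE2 and SERPINH1. Genes named outside this rule are marked as such.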

Additional observations from a re-analysis of the deposited data

How the results depend on the processing

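The number of serpins called (1 of 7) was 1 with no filter, quantile normalization and voom, 0 with 0.1 as the pseudocount and with 5 RPKM as the filter (which left 3 serpins to test), 2 after median of ratios rescaling, 4 when libraries were weighted, 0 to 2 when 1 library was left out, and 3 without both the filter and ICM 25. All genes gave 176 calls, and 112 with 0.1 as the pseudocount, 114 unfiltered, 81 with 5 RPKM as the filter, 760 with library weights, 0 to 1086 when 1 library was left out and 1300 without both the filter and ICM 25. The counts for context genes were 4 of 72, 14 with library weights, 0 to 18 when 1 library was left out and 22 without both. The highest counts came without ICM 25 (1086 and 18). All genes gave 0 without TE 16, 1 without TE 23 or TE 24, and 18 without ICM 15, and context genes gave 0 with each of these 4 left out in turn; the cause was not tested. SERPINB8 (log2 difference -0.23) reversed to 0.057 with library weights, and ranged from -0.70 without ICM 22 to 0.052 without ICM 15. For the 7 serpins tested, 79 of 94 values under alternatives kept their direction and side of the threshold. SERPINF2, not tested, went from 0.20 to -0.0048 without ICM 22. No paired analysis was possible because the 2 tissues share no replicate number. SERPINE3, SERPINF1, SERPINF2, SERPINH1 and SERPINI1 had under 100 reads in every library, which limits the precision of their values.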

Other observations

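Other protease inhibitors, and a list of cathepsins and caspases, gave 0 calls between the tissues in the limma fit of all 6 libraries (9436 genes tested). Both gave some under other settings. Neutrophil elastase, cathepsin G and granzyme B, named above as targets of clade B serpins, had no row, so they could not be tested. Furin was listed with the convertases below. Of 12 genes tested among the inhibitors that are not serpins, TIMP1, an inhibitor of matrix metalloproteases, had the smallest p, at 66.0, 136 and 45.6 RPKM in ICM 15, ICM 22 and ICM 25 and 24.7 to 33.2 in TE (log2 difference 1.41, SE 0.38, adjusted p = 0.108). CSTA, an inhibitor of cysteine cathepsins, had 6.47 ± 2.27 RPKM in ICM and 14.5 ± 4.26 in TE (adjusted p = 0.144). TIMP1 was called after median of ratios rescaling (adjusted p = 0.0332), after quantile normalization (0.0356) and with library weights (0.0062). Without ICM 25, 2 of the 12 were called higher in ICM, TIMP1 (adjusted p = 0.0122) and XIAP (named after its values were seen), and 0 higher in TE, where 5.89% and 5.62% of all genes were. Among 12 cathepsins and caspases tested, the abundant lysosomal protease CTSA had 103, 205 and 407 RPKM in ICM 15, ICM 22 and ICM 25 and 427 to 555 in TE (adjusted p = 0.191, 0.0137 with library weights and 0.0119 without ICM 25). Of these 12, library weights gave 1 call with ICM higher and 2 with TE higher, and leaving out ICM 25 gave 1 and 3. Of all 9436 genes, library weights called 365 and 395, and leaving out ICM 25 called 556 and 530. CASP8, which starts death receptor apoptosis, had 2.39 ± 0.51 RPKM in ICM and 1.08 ± 0.33 in TE (adjusted p = 0.196). At an unadjusted p under 0.05 the inhibitors had 2 genes with ICM higher and 1 with TE higher, and the cathepsins and caspases 3 and 1. All 9436 genes gave 498 and 1094. Voom on the recovered reads called 1 inhibitor, TIMP1, and 0 of the cathepsins and caspases.

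The trypsin-like membrane proteases and convertases (11 tested) had 0 calls in the same fit, 2 with TE higher under library weights and 3 with TE higher without ICM 25. These 2 settings called 395 and 530 of all 9436 genes with TE higher. PCSK7, a convertase, was at 35.9 ± 3.63 RPKM in TE and 16.6 ± 5.64 in ICM (adjusted p = 0.0993, 0.0137 with library weights and 0.0147 without ICM 25). PRSS12, a secreted protease, was at 0.96 ± 0.21 in TE and 3.07 ± 1.19 in ICM (adjusted p = 0.117). At an unadjusted p under 0.05 there was 1 gene with ICM higher and 2 with TE higher (498 and 1094 of all 9436 genes). Voom called 0 of the 11.

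Of 10 listed markers of cumulus cells and of oviduct or uterine epithelium, 4 had rows. They summed to 10.7 RPKM in ICM 25, 4.48 and 2.60 in ICM 15 and ICM 22, and 2.51 to 3.46 in TE. The 4 genes, named here outside the rule, did not move together. PTX3 (6.87 RPKM) and OVGP1 (2.72) had their highest level in ICM 25. MUC16 (0.37 RPKM) was lower there than in ICM 15 and ICM 22 (1.64 and 1.05), and PGR (0.77) was below TE (1.83 to 2.45). The part of cumulus, oviduct or uterine cells in the serpin levels of ICM 25 was not tested. Blood cell markers (2 rows) summed to 2.05 RPKM in ICM 25 and 0.59 to 1.59 in the other 5 libraries.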
